A study of Mus musculus with 4 samples.

Results

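Histone genes were examined in libraries labelled as mouse CD4+ T cells lacking or carrying Mthfd2, an enzyme of mitochondrial folate metabolism that passes one-carbon units towards purine synthesis. Genes were taken by their symbols, as all those named in the Hist1h to Hist4h series or in the current H1f, H2ac, H2bc, H3c and H4c series. That rule found 72 of the 31748 gene symbols in the tables. They comprised 12 genes of the linker histone H1, 19 of H2A, 17 of H2B, 12 of H3 and 12 of H4. By the RefSeq gene table of assembly GRCm38.p6, 55 of the genes lie on chromosome 13, 10 lie on chromosome 3 and 5 lie elsewhere, and 2 had no position.

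The KO group was 2 libraries of the genotype TEaMthfd2 KO and the WT group was 2 libraries of the genotype TEaWT, all from spleens of mice aged 8 weeks. TEa marks a transgenic T cell receptor of CD4+ cells. In every library, cells were positively selected on magnetic beads and then kept for 3 days with mitomycin-treated antigen-presenting cells from F1 (BALB/c x C57BL/6) spleens, so RNA of the presenting cells could be present in all 4 libraries. The labels do not give the deleted part of Mthfd2, nor whether animals were pooled or each library had its own animal or culture. The spread behind each p-value is thus that of the libraries, and it may be technical.

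The tables held raw read counts, with totals of 14191401 and 14419298 in KO replicates 1 and 2 and of 15955863 and 14686711 in WT replicates 1 and 2. Mthfd2 itself had 222 and 252 CPM (counts scaled to 1000000 per library) in KO libraries, against 280 and 280 CPM in WT libraries. Its log2 fold change was -0.24 ± 0.14 (SE, n = 2 per group), with an adjusted p of 0.324 in edgeR's quasi-likelihood test. The gene therefore did not check the labels, and every direction given here is between libraries labelled KO and libraries labelled WT. Cd8a, which marks the CD8 lineage, stood at 3.16 and 3.20 times the level of Cd4 in KO libraries and at 4.00 and 3.10 times in WT libraries, contrary to the CD4+ label. WT replicate 1 lay farther from the other libraries on several gene lists described beside the results, and results are given with and without it.

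Core histones H2A, H2B, H3 and H4 form the protein spool around which DNA is wound, and linker histones H1 bind where DNA enters and leaves that spool. Most of their genes are replication-dependent. They lack introns, lie in clusters, are transcribed mainly while DNA is copied, and give mRNAs that end in a conserved stem-loop instead of a poly(A) tail. The stem-loop is bound by SLBP, which accompanies the mRNA through 3′ end cutting, export and translation, and the mRNA is degraded when DNA synthesis stops. Replication-independent histone genes, such as those of H3.3 and of the linker histone H1.0 (H1f0), give polyadenylated mRNAs outside S phase as well. In T cells, activation drives resting cells into rapid rounds of division, each of which needs a new set of histones.

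The stem-loop was looked for because mRNAs that end in it carry no tail, although its presence alone does not settle where an mRNA ends. The letters GG, any 2 bases, CTTTT, any base, AG, any 2 bases and CC, in that order, were searched on the sense strand of GENCODE transcripts of GRCm38 (mm10). They occurred in 41 of the 69 genes with a matched transcript (59.4%), against 89 of all 55450 annotated genes (0.161%). In all 41 genes the 6 bases on one side of the loop paired with the 6 on the other. The search letters already set GG against CC and CT against AG, so only the 2 pairs between them were free to fail. The 31 genes outside the H4 family shared the stem GGCTCT, whereas the 10 H4 genes carried GGCCCT or GGTCCT. Of the 28 genes with a transcript and no match, 19 had an annotated transcript that ended at or within 100 bases of the stop codon, so a missing match says only that these letters are not in the annotated transcript. The sites of the more abundant genes of each family are shown with 5 flanking bases, and capitals mark the 16 letters of the stem and loop.
H1f2: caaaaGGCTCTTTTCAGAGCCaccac
H2ac8: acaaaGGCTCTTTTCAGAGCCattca
H2bc11: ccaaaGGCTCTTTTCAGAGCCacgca
H2bc12: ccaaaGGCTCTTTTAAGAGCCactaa
H3c3: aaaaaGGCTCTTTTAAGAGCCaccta
H3c1: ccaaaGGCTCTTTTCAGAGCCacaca
H4c9: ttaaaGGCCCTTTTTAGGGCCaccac
H4c8: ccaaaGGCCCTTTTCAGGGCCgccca

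The capital letters lie at chr13:23739512-23739527 on the plus strand for H1f2, at chr13:23570668-23570683 on the minus strand for H2ac8, at chr13:22043638-22043653 on the plus strand for H2bc11 and at chr13:22036300-22036315 on the plus strand for H2bc12. They lie at chr13:23745047-23745062 on the minus strand for H3c3, at chr13:23761890-23761905 on the minus strand for H3c1, at chr13:22040966-22040981 on the minus strand for H4c9 and at chr13:23531458-23531473 on the plus strand for H4c8. The stem of H4c9 and H4c8 differs from the others in the same paired letters. The loops differ in their last letter, the only loop letter that the search left free. No match was found in the transcripts of H1f0, H1f10 and H2bc21, each of which had a poly(A) signal (AATAAA or ATTAAA) in its last 50 bases.

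All histone genes together held few counts. Their sum was 182 and 165 CPM in KO replicates 1 and 2, against 39.0 and 153 CPM in WT replicates 1 and 2, or between 0.0040% and 0.0181% of a library. The 12 H3 genes summed to 63.5 and 75.0 CPM per kilobase of transcript in KO libraries and to 15.8 and 97.7 in WT libraries. The single polyadenylated H3.3 gene H3f3b stood at 230 and 241 CPM per kilobase in KO libraries and at 239 and 219 in WT libraries. The checks on RNAs with no poly(A) tail were mixed. Rmrp, Rpph1 and Rny3, small RNAs without a tail, had 0 counts in every library, and Rny1 had 4 counts in KO replicate 2 and 0 in the others. Such short RNAs can also be missing through the annotation or the fragment sizes, which was not tested. Malat1, a long nuclear RNA whose mature end is not polyadenylated but holds a stretch rich in A, had 8282 and 5430 counts in KO libraries and 12553 and 7941 counts in WT libraries. Total RNA was depleted of ribosomal RNA by the labels, which would keep tailless mRNAs, so how completely such mRNAs were captured is not known from these values.

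Of the 72 genes, 61 had a count in some library and 36 passed the filter on low counts, namely 7 H1, 5 H2A, 11 H2B, 8 H3 and 5 H4 genes. The 11 genes at 0 in every library were H1f6, H1f7, H1f9, H1f11-ps, H2ac18, H2ac19, H2ac21, H2bc1, H2bc18, H3c13 and H3c14. H1f6, H1f7, H1f9 and H2bc1 are known as histones of the male germ line. None of the 100-base windows of H2ac18, H2ac19, H2bc18, H3c13 and H3c14 was unique among annotated transcripts, so reads of these genes could have been left uncounted. A count of 0 allows up to 3 counts, or 0.212 and 0.215 CPM in KO libraries and 0.183 and 0.203 CPM in WT libraries, and covers counting error only. The other 25 genes that were not tested held at most 28 counts in all libraries together, while the tested gene with the fewest held 30. Of counts between 1 and 10, between 63.2% and 66.3% were even over all genes of a library, and between 63.2% and 80.8% over histone genes. Counts above 500 were even in between 49.1% and 50.5% of genes. Small counts may therefore carry more error than their size would give.

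WT replicate 1 had the lowest sum in each of the 5 families, and KO and WT replicate 2 stood close in H2B and in the total. H1 summed to 60.9 and 36.5 CPM in KO libraries, against 12.0 and 21.4 CPM in WT libraries. H2A summed to 16.7 and 15.9 CPM in KO libraries, against 1.22 and 12.6 CPM in WT libraries. H2B summed to 29.2 and 35.2 CPM in KO libraries, against 9.65 and 35.8 CPM in WT libraries. In H1 and H2A the KO libraries lay above both WT libraries, while in H2B WT replicate 2 lay above both. H3 summed to 37.4 and 44.2 CPM in KO libraries, against 9.71 and 59.9 CPM in WT libraries. H4 summed to 37.8 and 33.3 CPM in KO libraries, against 6.41 and 23.1 CPM in WT libraries. WT replicate 2 was thus the highest library for H3, whereas for H4 both KO libraries were higher than either WT library.

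The log2 ratio of the KO mean to the WT mean was 1.54 for H1, 1.23 for H2A, 0.50 for H2B, 0.23 for H3 and 1.27 for H4. Without WT replicate 1 it was 1.19 for H1, 0.37 for H2A, -0.15 for H2B, -0.55 for H3 and 0.63 for H4. Without WT replicate 2 it was 2.02 for H1, 3.74 for H2A, 1.74 for H2B, 2.08 for H3 and 2.48 for H4. In the 4 core families the WT libraries differed more from each other than WT replicate 2 differed from the KO mean, and in H1 they differed less, at 1.78 times. Without H1f0, the other 11 H1 genes summed to 15.6 and 12.3 CPM in KO libraries, against 4.58 and 10.5 CPM in WT libraries. Among those genes WT replicate 2 was at 2.30 times WT replicate 1, and the KO mean at 1.33 times WT replicate 2. As in the core families, their WT libraries thus differed more from each other than WT replicate 2 differed from the KO mean. Over the 60 core histone genes, WT replicate 2 had 4.86 times the summed CPM of WT replicate 1. No test was made of these sums.

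**Figure D1:**
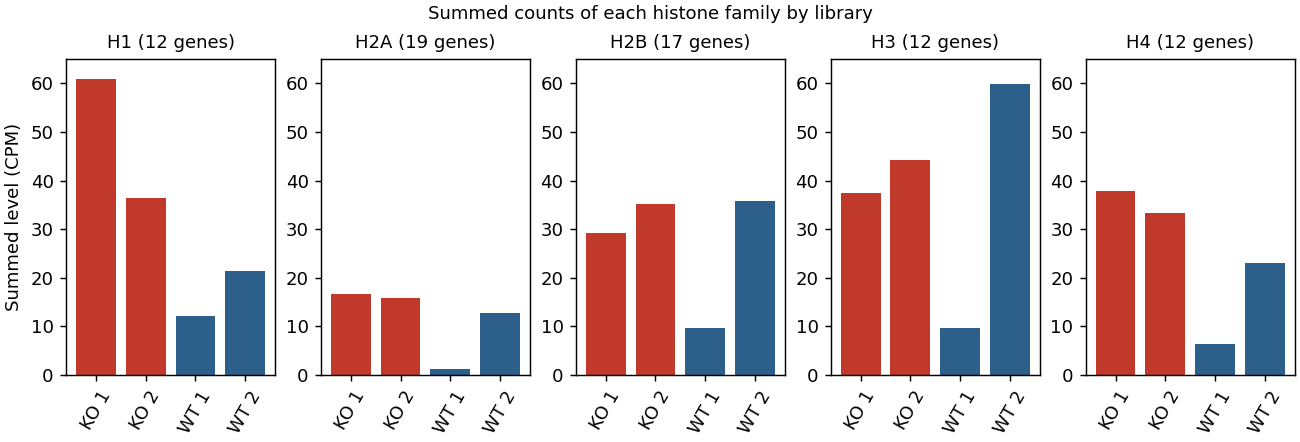
Summed level of the H1, H2A, H2B, H3 and H4 genes in each library, in CPM on a shared axis that starts at 0, with KO libraries in red and WT libraries in blue. WT replicate 1 is the lowest bar in every panel, and WT replicate 2 is the highest for H2B (35.8 CPM) and H3 (59.9 CPM).

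The mix of core histones also differed between libraries. Of the counts of core histone genes, H3 made up 30.9% and 34.3% in KO libraries, against 36.0% and 45.6% in WT libraries. H4 made up 31.2% and 25.9% in KO libraries, against 23.8% and 17.6% in WT libraries. H2A made up 13.8% and 12.4% in KO libraries, against 4.52% and 9.62% in WT libraries. H2B made up 24.1% and 27.4% in KO libraries, against 35.7% and 27.2% in WT libraries. Shares of H4 and H2A were higher and the share of H3 lower in both KO libraries than in either WT library, while the groups overlapped for H2B. Over a few low genes of each family these shares are a description, with no test.

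H1f0 was the histone gene that rose in KO libraries. It encodes the replication-independent linker histone H1.0, which is known for accumulating in cells that have left division. The gene (chr15:79028212-79030504, plus strand, GRCm38) had 45.3 and 24.2 CPM in KO libraries, against 7.45 and 10.9 CPM in WT libraries. Both KO libraries lay above both WT libraries, and the means were 34.7 ± 14.9 CPM in KO and 9.17 ± 2.43 CPM in WT (SD, n = 2 each). The log2 fold change was 1.92 ± 0.36 (SE), with an adjusted p of 0.0430 in edgeR's quasi-likelihood test over 12752 genes. That p was 0.0530 with upper-quartile factors and 0.0516 with library size only. With each library left out in turn, the log2 fold change in edgeR stayed positive, between 1.40 and 2.31. The call was lost without WT replicate 1. It was also lost without either KO library, where no gene of any kind was called. H1f0 overlaps the gene Gm49544 on the opposite strand, and the use of strand in counting is not given in the sources used here, so reads of the pair could not be told apart.

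Some markers of each cell type below moved with the same groups, by edgeR's adjusted p. B cell genes summed to 444 and 379 CPM in KO libraries and to 1264 and 770 CPM in WT libraries, and 5 of the 8 fell, with a median log2 fold change of -1.33. MHC class II genes summed to 1139 and 966 CPM in KO libraries and to 3647 and 2160 CPM in WT libraries, and all 4 fell. Hemoglobin and other erythroid genes summed to 6.86 and 3.08 CPM in KO libraries and to 127 and 32.3 CPM in WT libraries, and 2 of the 4 tested fell. WT replicate 1 was the highest library in each of these sums. Myeloid genes summed to 16.1 and 11.6 CPM in KO libraries and to 47.1 and 31.6 CPM in WT libraries, and 1 of the 6 tested fell. Plasma cell genes summed to 216 and 191 CPM in KO libraries and to 271 and 250 CPM in WT libraries, and 1 of 4 fell. That list was split, with 2 positive and 2 negative log2 fold changes and a median of -0.08. T cell genes summed to 2889 and 2992 CPM in KO libraries and to 1945 and 2023 CPM in WT libraries, and 3 of the 8 tested rose. No marker found in the tables was at 0 in all libraries. The part of these cells in H1f0 or in any other histone gene was not tested. In bulk samples, fewer cells of a type and less RNA per cell cannot be told apart.

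Among the other linker histones no gene passed the test. H1f2 (H1.2), which is among the main somatic linker histones and carries both a stem-loop and a poly(A) signal in its annotated transcript, had 8.06 and 6.74 CPM in KO libraries, against 3.42 and 4.60 CPM in WT libraries. Both KO libraries lay above both WT libraries, with a log2 fold change of 0.88 ± 0.34 (SE) and an adjusted p of 0.172 in edgeR. H1f4, another somatic replication-dependent H1, had 2.40 and 2.08 CPM in KO libraries, against 0.428 and 2.03 CPM in WT libraries, so that WT replicate 2 was close to KO (log2 fold change 0.88, adjusted p = 0.507 in edgeR). H1f10, a replication-independent linker histone, had 13 and 11 counts in KO libraries, against 0 and 7 counts in WT libraries (log2 fold change 1.86 ± 1.16, adjusted p = 0.354 in edgeR). H1f1, the smallest change of the family, had 10 and 14 counts in KO libraries, against 6 and 16 counts in WT libraries, and the groups overlapped. Its log2 fold change of 0.25 (adjusted p = 0.869 in edgeR) was -0.02 without KO replicate 2 and -0.33 without WT replicate 1. H1f8, an oocyte histone, had 6 and 2 counts in KO libraries and 0 and 4 counts in WT libraries and was not tested.

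H2A and H2B genes sit mostly in head-to-head pairs that share the stretch between their starts. There were 13 such pairs of histone genes with starts at most 1000 bases apart, of which 12 joined an H2A and an H2B gene and 5 had both genes tested. H2ac8 (chr13:23570663-23571220, minus strand) was the most abundant H2A gene, with 6.72 and 6.60 CPM in KO libraries, against 0.367 and 4.60 CPM in WT libraries. That was a log2 fold change of 1.43 ± 0.89 (SE), with an adjusted p of 0.351 in edgeR. Its partner H2bc8 had 12 and 30 counts in KO libraries, against 8 and 37 counts in WT libraries. The KO libraries thus lay above both WT libraries for H2ac8 and between them for H2bc8.

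H2ac11 and H2bc11 start 249 bases apart and showed the same contrast. H2ac11 had 58 and 54 counts in KO libraries, against 2 and 33 counts in WT libraries, a log2 fold change of 1.77 ± 0.96 with an adjusted p of 0.294 in edgeR. H2bc11, the most abundant H2B gene, had 123 and 154 counts in KO libraries, against 55 and 247 counts in WT libraries. Its log2 fold change was -0.02 ± 0.65 (SE; adjusted p = 0.990 in edgeR), and it was -0.75 without WT replicate 1 and 1.56 without WT replicate 2. Only 23.8% of the 100-base windows of H2ac11 and 59.9% of those of H2bc11 were unique among annotated transcripts, so reads could have been shared with near-identical genes. H2ac8 and H2ac11 also overlap genes on the opposite strand (Gm44394 and Gm44486), while H2bc8 and H2bc11 overlap none. Strand use in counting is not given, so reads of such overlaps could not be told apart. The difference between partners was not tested.

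The stretch between them is shown because this abundant pair is transcribed outwards from its ends. It is the window from 250 bases before to 50 bases after the start of H2bc11, at chr13:22042948-22043247 on the plus strand in RefSeq's GRCm38.p6, and the start of H2ac11 lies at its left edge. Capitals mark CCAAT, or ATTGG for the opposite strand.
H2bc11 promoter: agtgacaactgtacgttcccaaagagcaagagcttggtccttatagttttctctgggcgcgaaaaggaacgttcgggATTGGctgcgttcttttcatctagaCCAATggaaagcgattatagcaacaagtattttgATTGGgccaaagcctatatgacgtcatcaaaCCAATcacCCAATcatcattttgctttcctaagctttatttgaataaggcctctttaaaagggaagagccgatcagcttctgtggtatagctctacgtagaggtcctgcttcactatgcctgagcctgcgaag

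CCAAT occurred 5 times in that window over both strands, and TATAAA did not occur. On either strand, CCAAT was found in 82.3% of the promoters of the 62 histone genes in RefSeq's promoter table, against 37.9% of all 27025 promoters of the same length. TATAAA was found in 54.8% of them, against 14.2% of all promoters. These matches describe the letters in the windows. Partners of a head-to-head pair share part of their windows, so a match can count for both. The promoter of H1f0, the gene that rose, held neither motif, as did those of H1f10, H1f7, H4c2 and H4c8. It was 75% G and C, against 77.7% for H1f10 and 44.3% for H2bc11.
H1f0 promoter: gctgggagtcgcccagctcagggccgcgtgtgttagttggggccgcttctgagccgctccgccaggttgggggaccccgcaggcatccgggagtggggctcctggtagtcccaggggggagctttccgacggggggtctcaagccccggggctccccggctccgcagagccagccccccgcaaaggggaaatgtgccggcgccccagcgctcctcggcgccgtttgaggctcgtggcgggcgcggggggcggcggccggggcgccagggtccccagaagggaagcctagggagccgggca

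That window lies at chr15:79027962-79028261 on the plus strand. It is shown beside the H2A and H2B promoter because H1f0 is the member that the test called.

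The remaining H2A and H2B genes named here differed in how KO lay to the WT libraries. H2ac13 had 18 and 16 counts in KO libraries, against 1 and 32 counts in WT libraries, so that KO lay between them, and only 11.6% of its windows were unique. Its log2 fold change of 0.14 (adjusted p = 0.957 in edgeR) was -0.83 without WT replicate 1. H2bc12 had 58 and 96 counts in KO libraries, against 0 and 75 counts in WT libraries, with a log2 fold change of 1.13 ± 1.27 (adjusted p = 0.617 in edgeR). A gene with 75 counts in WT replicate 2 was thus uncounted in WT replicate 1, where a count of 0 allows up to 0.183 CPM. Only 29.2% of the windows of H2bc12 were unique, so its reads could have been shared with near-identical genes or left uncounted. H2bc21, an H2B gene whose transcript has a long 3′ end with a poly(A) signal, showed the reverse order of the WT libraries. It had 92 and 54 counts in KO libraries, against 47 and 32 counts in WT libraries, and both KO libraries were higher (log2 fold change 1.04 ± 0.44, adjusted p = 0.202 in edgeR). H2bc9 had 10 and 38 counts in KO libraries, against 4 and 14 counts in WT libraries (log2 fold change 1.53 ± 0.92, adjusted p = 0.341 in edgeR), and KO replicate 2 alone was above both WT libraries.

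H3 genes held the largest and the smallest fold changes of all histone genes tested. H3c3 (chr13:23745042-23745521, minus strand), which encodes a replication-dependent H3 and was the most abundant core gene after H4c9, had 18.2 and 22.9 CPM in KO libraries, against 2.14 and 29.1 CPM in WT libraries. WT replicate 2 was the highest library and WT replicate 1 the lowest. Its log2 fold change was 0.40 ± 0.91 (SE; adjusted p = 0.821 in edgeR), and it was -0.50 without WT replicate 1 and 3.27 without WT replicate 2. H3c1 was the only tested histone gene with both KO libraries below both WT libraries. It had 4.45 and 4.23 CPM in KO libraries, against 4.64 and 11.4 CPM in WT libraries, a log2 fold change of -0.88 ± 0.47 with an adjusted p of 0.288 in edgeR. WT replicate 1 lay close to KO, so the separation rests on WT replicate 2, without which the log2 fold change was -0.09.

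H3c2 stood at the other end, with 20 and 14 counts in KO libraries, against 0 and 4 counts in WT libraries. This gave a log2 fold change of 3.13 ± 1.09 (SE), with an unadjusted p of 0.0252 and an adjusted p of 0.140 in edgeR. At such counts the fitted value depends on the prior count, and it is no bound. Of the 100-base windows of H3c2, 43.4% were unique among annotated transcripts. H3c6 had 40 and 51 counts in KO libraries, against 20 and 104 counts in WT libraries, so KO lay between the WT libraries (log2 fold change -0.34, adjusted p = 0.816 in edgeR).

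H4 genes encode a protein that is the same from nearly all of them, and 1 gene, H4c9, gave most of the counts. H4c9 (chr13:22040960-22041362, minus strand) had 27.9 and 25.4 CPM in KO libraries, against 4.58 and 16.1 CPM in WT libraries. Both KO libraries lay above both WT libraries, and the means were 26.6 ± 1.75 CPM in KO and 10.3 ± 8.14 CPM in WT (SD, n = 2 each). The log2 fold change was 1.37 ± 0.52 (SE), with an adjusted p of 0.164 in edgeR. The same counts gave an adjusted p of 0.0426 in DESeq2. In edgeR the log2 fold change was 0.73 without WT replicate 1 and 2.54 without WT replicate 2. In the annotated transcript H4c9 carries the stem-loop shown for it and, 330 bases farther on, an end with a poly(A) signal.

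The next H4 genes were far lower. H4c4 had 36 and 38 counts in KO libraries, against 2 and 34 counts in WT libraries, so that WT replicate 2 was close to KO (log2 fold change 1.13 ± 1.00, adjusted p = 0.518 in edgeR). H4c8 had 24 and 29 counts in KO libraries, against 6 and 16 counts in WT libraries, and both KO libraries were higher (log2 fold change 1.38 ± 0.69, adjusted p = 0.259 in edgeR). H4c6 had 4 and 10 counts in KO libraries, against 0 and 18 counts in WT libraries, and the groups overlapped (log2 fold change -0.25, adjusted p = 0.931 in edgeR). Among H4 genes that were not tested, H4c11 had 14 and 2 counts in KO libraries and 0 and 0 counts in WT libraries, and H4c12 had 18 and 6 counts in KO libraries and 0 and 4 counts in WT libraries. Both were named after their values were seen.

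Of the 36 histone genes tested, 1 was called higher in KO and 0 were called lower at an adjusted p under 0.05 in edgeR, against 2.39% and 1.56% of all genes tested, or 3.95% in either direction. At an unadjusted p under 0.05 there were 4 higher (H1f0, H1f2, H3c2 and H4c9) and 0 lower, against 12.8% and 12.7% of all genes. DESeq2 gave an adjusted p for 28 of them and called 2 higher, H1f0 and H4c9, and 0 lower, against 6.65% and 6.18% of the genes with such a value. Histone genes were thus called higher about as often as other genes, and were not called lower in any of these counts. The median log2 fold change was 0.96, between -0.88 and 3.13, where that of all genes tested was -0.0026. It was 0.88 for H1, 1.30 for H2A, 0.68 for H2B, 0.65 for H3 and 1.13 for H4.

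Signs leaned further than calls did. A positive log2 fold change was found for 31 of the 36 genes, against 49.8% of all genes tested. Both KO libraries lay above both WT libraries for 17 of them, against 29.8% of all genes, and below them for 1, against 30.1%. The groups overlapped for 18. The lowest library was WT replicate 1 for 32 of the 36 genes, against 31.9% of all genes. WT replicate 2 on its own lay above both KO libraries for 11 histone genes and below both for 17. These genes share the same 4 libraries and are not replicates of each other.

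**Figure D2:**
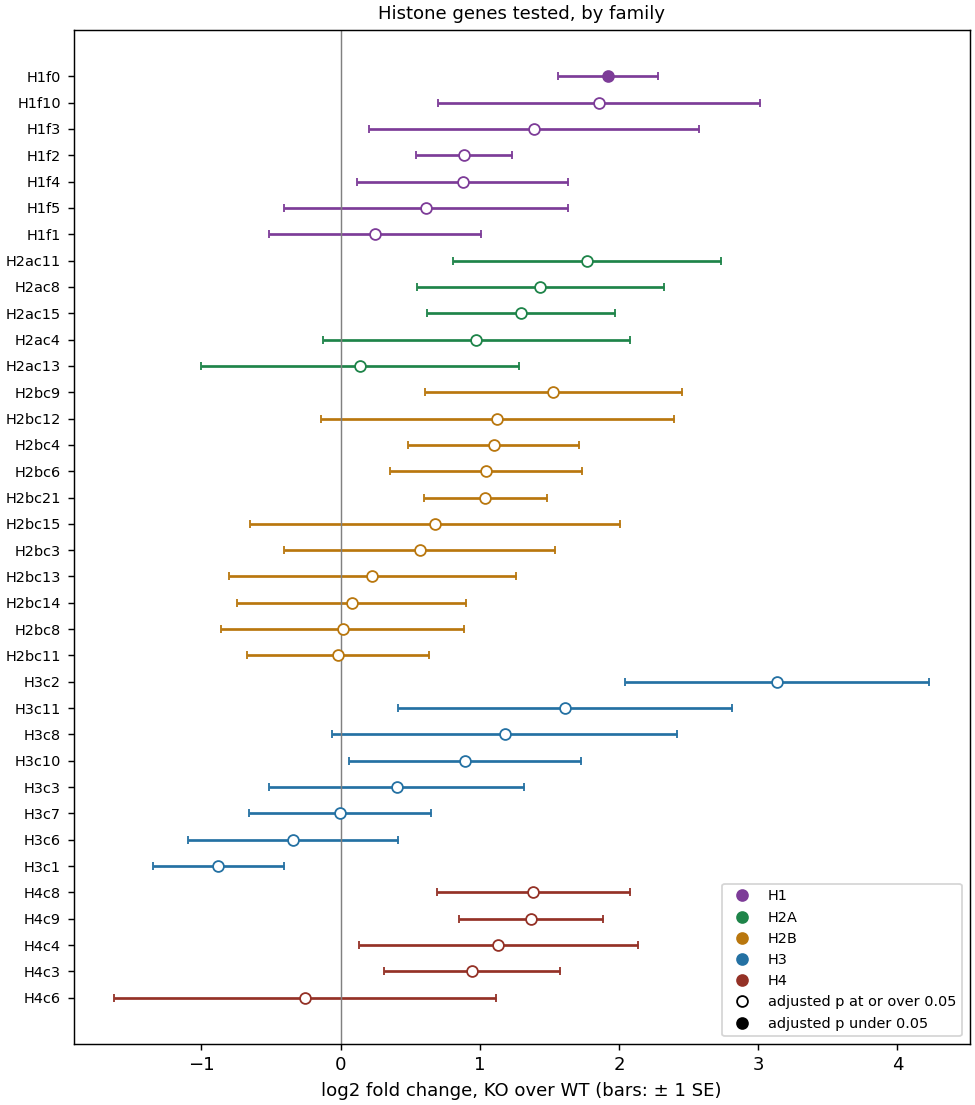
Log2 fold change, KO over WT, of the 36 histone genes tested, ordered by family, with bars of 1 SE from edgeR's quasi-likelihood fit (n = 2 libraries per group). H1f0 at 1.92 is the filled point, the only adjusted p under 0.05, and 31 of the 36 points lie right of 0.

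Leaving out either WT library changed the picture in opposite ways. Without WT replicate 1, the log2 fold changes of the 36 genes were positive for 22 and negative for 14. Their median was then 0.16, against 0.02 over all genes tested, and H1f0 was at 1.68. By family the medians were then 0.38 for H1, 0.54 for H2A, -0.27 for H2B, -0.22 for H3 and 0.73 for H4. Without WT replicate 2, 34 of the 35 genes still tested were positive. The median of these 35 genes was then 2.54, against 0.01 over all genes tested. The number of histone genes called is not given for these 2 fits, because WT then has 1 library. Of the 36 genes, 8 had 0 counts in WT replicate 1, and 7 of those have a fold change without WT replicate 2, which depends on the prior count. A group of 1 library is assumed here to vary like the other group.

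**Figure D3:**
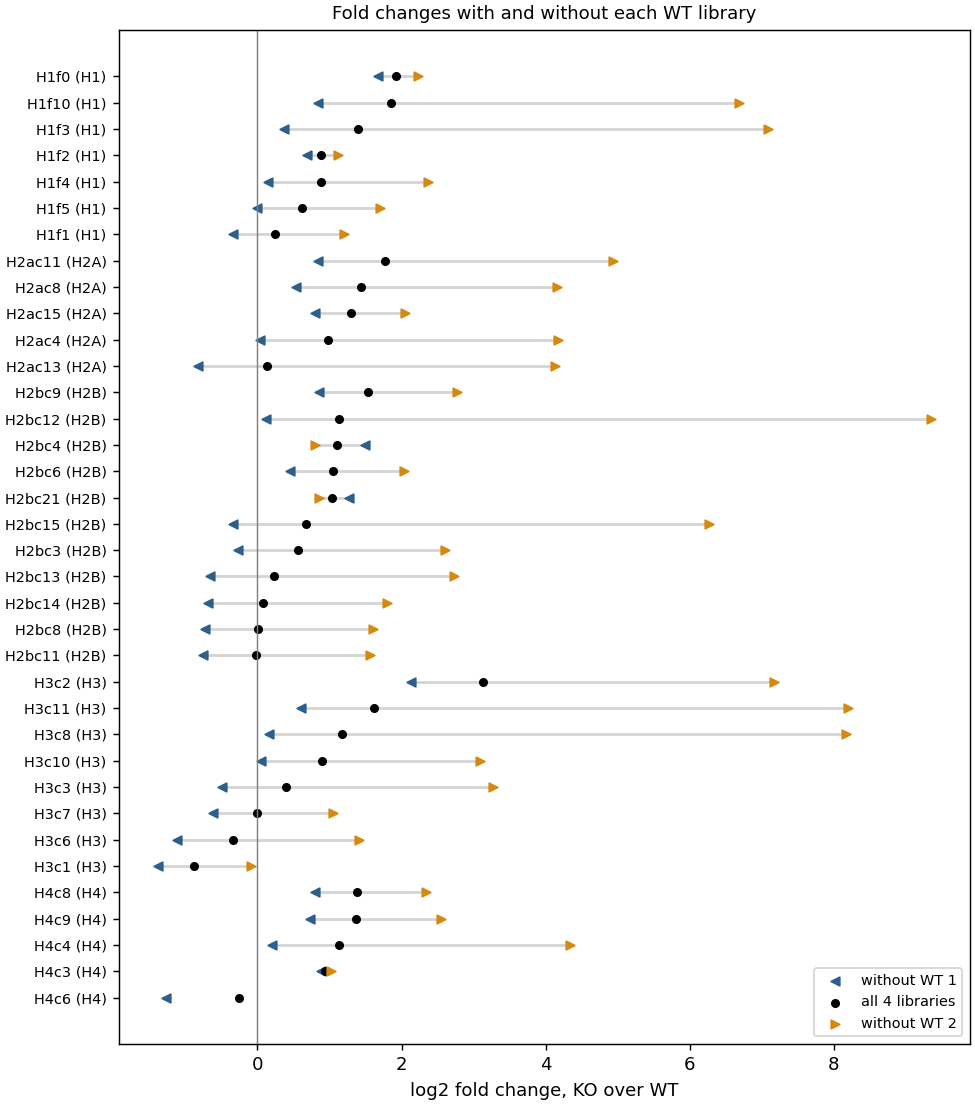
Log2 fold change, KO over WT, of the histone genes with all 4 libraries (circles), without WT replicate 1 (left-pointing triangles) and without WT replicate 2 (right-pointing triangles). The triangles without WT replicate 2 lie farthest right for genes with 0 counts in WT replicate 1, and H1f0, H1f2, H2bc4, H2bc21 and H4c3 move little. H4c6 did not pass the filter without WT replicate 2.

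Grouped by the annotated 3′ end, the genes differed in how far the WT libraries stood apart. The 5 genes with a poly(A) signal and no stem-loop, of which H1f0, H1f10 and H2bc21 were tested, summed to 53.7 and 29.0 CPM in KO libraries, against 10.4 and 14.7 CPM in WT libraries. WT replicate 2 was there at 1.41 times WT replicate 1. The 10 genes with a stem-loop and a poly(A) signal summed to 47.6 and 44.0 CPM in KO libraries, against 9.35 and 28.1 CPM in WT libraries, a WT ratio of 3.01. All 5 tested genes of that class (H1f2, H2ac8, H2bc6, H4c8 and H4c9) had both KO libraries above both WT libraries, an order found in 29.8% of all genes tested. The 31 genes with a stem-loop and no poly(A) signal summed to 60.7 and 73.9 CPM in KO libraries, against 16.2 and 92.8 CPM in WT libraries, a WT ratio of 5.73. There WT replicate 2 was the highest library, and 6 of the 18 tested genes had both KO libraries above both WT libraries, a share near the 29.8% of all genes. A missing poly(A) signal means only that AATAAA and ATTAAA were absent from the last 50 bases of the annotated transcript. Some transcripts of this last class run far past the stem-loop, by 4884 bases in H1f3 and 1214 in H2bc9. The class is thus not known to hold only mRNAs without a tail. The classes were not tested against each other.

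**Figure D4:**
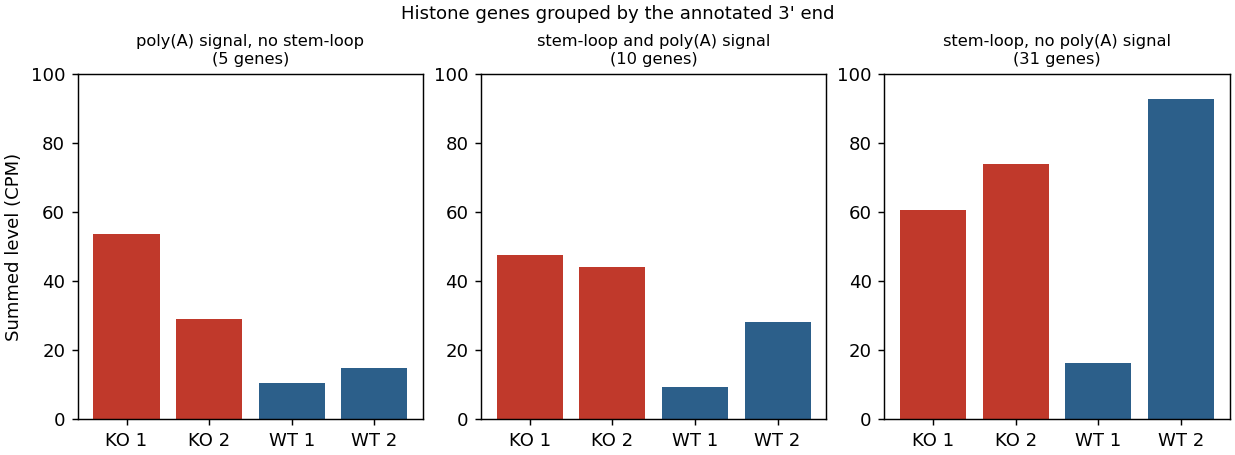
Summed level in CPM of histone genes by annotated 3′ end, with KO libraries in red and WT libraries in blue on a shared axis that starts at 0. WT replicate 2 is below both KO libraries for genes with a poly(A) signal (14.7 and 28.1 CPM) and above both for those with a stem-loop and no poly(A) signal (92.8 CPM). The signal was searched in the last 50 bases of the annotated transcript.

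The remaining classes were 23 genes with neither feature in the annotated transcript, at 20.0 and 17.9 CPM in KO libraries against 3.05 and 17.1 CPM in WT libraries, and 3 genes with no matched transcript. Median log2 fold changes were 1.86 over the 3 tested genes with only a poly(A) signal, 1.37 over the 5 with both features, 0.72 over the 18 with only a stem-loop and 0.79 over the 10 with neither. H1f0 held most of the counts of the first class, and H4c9 was the most abundant gene of the second.

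Histone variants listed as giving polyadenylated mRNAs lie outside the symbol rule and are set beside it. Whether their mRNAs can also end in the stem-loop was not examined. Of 9 tested genes of a list that also holds H1f10, 1 rose and 0 fell by edgeR, with a median log2 fold change of 0.54. At an unadjusted p under 0.05 there were 3 higher (H2ax, H2az2 and Cenpa) and 0 lower, and DESeq2 called 2 higher (H2ax and H2az2). H2az2 (H2A.Z.2), a variant found around transcription starts, rose to 58.5 and 54.1 CPM in KO libraries, against 14.5 and 18.2 CPM in WT libraries. The log2 fold change was 1.78 ± 0.19 (SE), with an adjusted p of 0.0199 in edgeR, and the WT libraries were close to each other. The call of H2az2 was lost without either KO library, as were the calls of all other genes. H2ax, the variant phosphorylated at DNA breaks, had 148 and 141 CPM in KO libraries, against 64.0 and 102 CPM in WT libraries (log2 fold change 0.80 ± 0.23, adjusted p = 0.0996 in edgeR and 0.0167 in DESeq2). Cenpa, the H3 variant of centromeres, had 320 and 275 CPM in KO libraries, against 25.9 and 105 CPM in WT libraries (log2 fold change 2.18 ± 0.57, adjusted p = 0.0787 in edgeR). H3f3b, which encodes H3.3, had 577 and 607 CPM in KO libraries, against 601 and 551 CPM in WT libraries (log2 fold change 0.04, adjusted p = 0.893 in edgeR).

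In a list of 13 genes for the processing and turnover of histone mRNA, 0 were called in either direction by edgeR, and the median log2 fold change was 0.06. At an unadjusted p under 0.05 that list held 2 higher genes, Zfp473 and Casp8ap2, and DESeq2 called 1 higher. Slbp, the stem-loop binding protein, had 210 and 238 CPM in KO libraries, against 121 and 203 CPM in WT libraries (log2 fold change 0.47 ± 0.25, adjusted p = 0.285 in edgeR). Zfp473, the mouse counterpart of a zinc finger protein of the histone 3′ end cutting complex, had 11.0 and 8.10 CPM in KO libraries, against 1.34 and 3.72 CPM in WT libraries (log2 fold change 1.92 ± 0.51, adjusted p = 0.0817 in edgeR). For both genes WT replicate 1 was the lowest library. Of 17 histone chaperones, 0 rose and 1 fell by edgeR, with a median of 0.07. At an unadjusted p under 0.05 there were 2 higher, Asf1b and Atrx, and 1 lower, and DESeq2 called 1 higher, Atrx, and 1 lower. Ipo4, the importin that carries H3 and H4 into the nucleus, fell to 32.4 and 43.6 CPM in KO libraries, against 93.8 and 77.7 CPM in WT libraries. The fall was a log2 fold change of -1.17 ± 0.21 (SE), with an adjusted p of 0.0400 in edgeR. That call was lost without either KO library, where no gene was called.

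Replication-dependent histone mRNA is known to follow S phase, so cell cycle genes were set beside it. Of 38 S phase genes, 0 were called by edgeR or DESeq2 and 0 had an unadjusted p under 0.05 in edgeR. All 38 had a positive log2 fold change with a median of 0.40, and 37 were lowest in WT replicate 1. Their sum was 8527 and 10170 CPM in KO libraries, against 5021 and 8983 CPM in WT libraries. Of 20 genes of G2 and mitosis, 0 were called by edgeR or DESeq2, and 4 had an unadjusted p under 0.05 in edgeR, all higher. All 20 were positive with a median of 1.39, and all 20 were lowest in WT replicate 1. They summed to 5851 and 6113 CPM in KO libraries, against 694 and 3847 CPM in WT libraries. On a log2 scale against WT replicate 2, core histones stood at -0.12 and -0.03 in KO libraries and at -2.28 in WT replicate 1. G2 and mitosis genes stood at 0.61 and 0.67 in KO libraries and at -2.47 in WT replicate 1, and S phase genes at -0.08 and 0.18 in KO libraries and at -0.84 in WT replicate 1. H1f0 stood at 2.06 and 1.15 in KO libraries and at -0.55 in WT replicate 1. The core histone sum thus lay near WT replicate 2 in both KO libraries and far below it in WT replicate 1, while H1f0 differed more between KO and WT replicate 2 than between the WT libraries. The part of cell cycle stage in the histone levels was not tested.

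**Figure D5:**
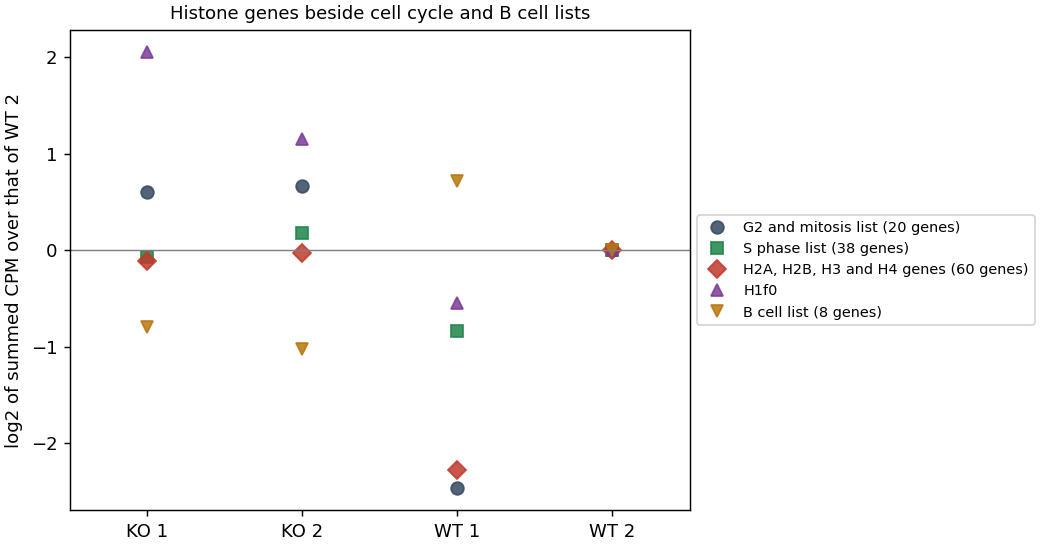
Log2 of the summed CPM of each list over that of WT replicate 2, by library, for G2 and mitosis genes, S phase genes, the 60 core histone genes, H1f0 and B cell genes. Core histones lie at -0.12 and -0.03 in KO libraries and at -2.28 in WT replicate 1, whereas H1f0 lies at 2.06 and 1.15 in KO libraries.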

How the data were processed

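Each library has its own table of raw read counts per gene symbol, as deposited by the authors. The submitters' processing notes name Subread 2.0.1, featureCounts, DESeq2 1.30.1, R 4.0.4 and mm10. For strand use, annotation, aligner and multi-mapping reads, the setting is not given in the sources used here. Near-identical histone genes can therefore share reads, and the unique share of 100-base windows had a median of 70.4% over tested histone genes and was under 50% in 9 of 36.

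The counts were fitted with edgeR 4.0.16 (R 4.3.3). Genes passed filterByExpr (minimum count 10, minimum total 15), libraries were scaled by TMM, and KO was compared with WT by the quasi-likelihood test with no covariate, adjusted by Benjamini-Hochberg over all 12752 genes tested. CPM values are counts scaled to 1000000 by the TMM-adjusted total. Calls needed an adjusted p under 0.05. An exact permutation test of 2 against 2 libraries cannot go below 0.333 and was not used. On simulated counts of KO over WT with 12478 genes tested, 31.3% of 99 genes changed 2-fold and 81.6% of 98 changed 4-fold were called. The changed genes were drawn at random from all genes, whatever their level. Of 12281 genes simulated without a change, 19 were called. The chi-square per degree of freedom was 16.1 between KO libraries and 40.3 between WT libraries, so libraries of a group were counted separately. Alternatives were other scalings and filters, DESeq2 1.42.0, limma-voom (limma 3.58.1), a replicate block and leaving out each library.

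The genes and lists were chosen with earlier results of these data known. Values are given for called members, the 3 most abundant and the extreme fold changes of each family, H1f0 and H1f10, called genes of the variant, processing and chaperone lists, and Slbp and Mthfd2. Others were named after their values were seen. Every column of the tables was used. Sequences came from GENCODE transcripts of GRCm38 and from RefSeq's GRCm38.p6 promoter table.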

Additional observations from a re-analysis of the deposited data

How the results depend on the processing

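Of simulated 2-fold changes, in genes drawn at random from all those tested, 31.3% were called at this depth and number of libraries. Of 12281 genes simulated without a change, 19 were called too. The share for genes at the low levels of most histone genes was not simulated. Low counts of near-identical genes limit single members. The count of histone genes called higher, 1 in the fit described, was 0 with upper-quartile factors and with library size only, 2 in DESeq2 (28 genes with an adjusted p), and between 0 and 13 when a library was left out (0 without KO replicate 1, KO replicate 2 or WT replicate 1, and 13 without WT replicate 2). None of these settings called a histone gene lower. H1f0 had an adjusted p of 0.0530 with upper-quartile factors and of 0.0516 with library size only. The median log2 fold change, 0.96, was between 0.16 and 2.61 when a library was left out, and 1.42 in limma-voom. Log2 ratios of family sums ranged, over libraries left out, between 1.13 and 2.02 for H1, 0.37 and 3.74 for H2A, -0.15 and 1.74 for H2B, -0.55 and 2.08 for H3, and 0.63 and 2.48 for H4.

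Signs turned for 6 named genes, and the cause was not tested. H2bc11 was at 0.43 in limma-voom and between -0.75 and 1.56 over libraries left out, with 0.15 without KO replicate 1. H3c6 was at 0.18 in limma-voom and between -1.11 and 1.41 (without WT replicate 2) over libraries left out. H4c6 was at 1.40 in limma-voom and between -1.27 and 0.26 (without KO replicate 1). H1f1 was between -0.33 (without WT replicate 1) and 1.21, with -0.02 without KO replicate 2. H2ac13 was between -0.83 and 4.14 and H3c3 between -0.50 and 3.27, both lowest without WT replicate 1. Of the 278 values of named genes under an alternative, 246 kept their direction and their side of the threshold, 14 turned, 9 passed it newly and 9 no longer passed it.

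The replicate numbers do not pair the libraries by any label, and deviations of same-numbered libraries correlated at 0.0397. With the replicate block, 1 histone gene was called higher and 0 lower, the median was 1.15, and the log2 fold changes of H2bc11, H3c6 and H4c6 were 0.34, 0.0469 and 0.31.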

Other observations

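Some rows of the tables carry histone symbols that the naming rule does not take. H2aw had 11 and 0 counts in KO libraries and 22 and 3 counts in WT libraries. H2bu2 had 20 and 9 counts in KO libraries and 8 and 10 counts in WT libraries. H4f16 had 4 and 0 counts in KO libraries and 0 and 9 counts in WT libraries, and H3f4 had 0 and 4 counts in KO libraries and 2 and 1 counts in WT libraries. Of the 4, only H2aw passed the filter on low counts, with a log2 fold change of -0.99 and an adjusted p of 0.689 in edgeR, and its groups overlapped.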
